A study of Mus musculus with 20 samples.

Results

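Transcription factors that specify the myeloid lineage were followed in leukemic mouse spleens after tamoxifen-induced deletion of Acly, the gene of the cytosolic enzyme ATP-citrate lyase, in a T-cell acute lymphoblastic leukemia (T-ALL). The 8 factors are Cebpa, Cebpb, Cebpd, Cebpe, Spi1, Irf8, Gfi1 and Klf4. They were taken by gene symbol and are 8 of the 27465 genes listed in the deposited tables. All 8 passed the filter on low values in both arms of the study, and each reached 10 normalized counts in every acute library.

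The 20 libraries came from spleens of mice that received conditional-knockout Acly leukemia cells by vein after sublethal irradiation. The acute arm treated mice once leukemia was overt, with tamoxifen (4 libraries, called KO) or with corn oil alone (6 libraries, called WT or control), and collected the spleen 72 h after treatment. In the survival arm, tamoxifen (5 KO libraries) or corn oil (5 WT libraries) was given 48 h after transplantation, and samples were taken at the humane endpoint. The tamoxifen dose was 3 mg per mouse in corn oil by intraperitoneal injection. WT libraries thus carry the same conditional allele, and the effect of the drug and that of the deletion cannot be told apart. The sources used here give no deleted exons, Cre driver, strain or age. Cell suspensions were made from whole spleens and depleted of red cells by lysis. The labels name no sort, so each library holds polyadenylated RNA of the whole suspension. In such bulk samples, fewer cells of a type and less RNA per cell cannot be told apart. The labels leave unstated whether libraries are from separate mice, and p-values then measure the spread between libraries, which may be technical.

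Myeloid cells are specified by a small set of DNA-binding proteins that act together. PU.1, the ETS factor encoded by Spi1, and C/EBP alpha switch on growth factor receptors and granule genes in early progenitors, and C/EBP epsilon drives the later step in which neutrophils fill their secondary granules. C/EBP beta and C/EBP delta act in emergency granulopoiesis and in inflamed macrophages, IRF8 and KLF4 favour monocytes and dendritic cells, and the repressor GFI1 favours granulocytes over monocytes. None of these is fully private to myeloid cells: Gfi1 is also used by developing T cells, and Irf8 and Spi1 by B cells.

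Values are the authors' DESeq-normalized counts, which were scaled separately in each arm, so KO and WT were compared within an arm only. They are not divided by transcript length, and levels were therefore not compared between genes. Totals per library were 19432235 to 20731983 in the acute arm and 19998354 to 21623571 in the survival arm. Changes were tested on log2(normalized count + 1) with limma over all genes, a gene was called at a Benjamini-Hochberg adjusted p under 0.05, and every adjusted p below is from that test. Acly was at 5670 ± 766 normalized counts in acute KO libraries and 7735 ± 298 in acute WT libraries (SD, n = 4 and 6; log2 fold change -0.46, SE 0.0747, limma adjusted p = 0.000866, and 0.00476 by a two-sided exact permutation test, which is its minimum over 210 arrangements). In the survival arm it was at 3092 ± 712 in KO libraries and 7889 ± 561 in WT libraries (SD, n = 5 each; log2 fold change -1.38, SE 0.131, limma adjusted p = 0.0016, and 0.00794 by the exact permutation test, again its minimum, over 252 arrangements). For Acly every KO library lay below every WT library in both arms. The acute fall of Acly was not called after scaling to Trbc1 and Trbc2, constant genes of the T-cell receptor (log2 fold change -0.0815, limma adjusted p = 0.654). Some libraries stood apart within their group in the summed level of 18 neutrophil markers, which was 376059 normalized counts in acute KO library 3 and 620235 in library 2, against 179328 and 219160 in the other acute KO libraries, and no higher than 8364 in survival KO libraries 2, 4 and 5 and survival WT library 4.

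In the acute arm, 7 of the 8 factors were higher in KO spleens, by 2.67- to 9.93-fold, and Gfi1 did not pass the test. For each of the 7, every KO library lay above every WT library. The fold changes were larger for Cebpa, Cebpd, Cebpe, Spi1 and Klf4, at 6.02-fold or more, than for Cebpb (2.86-fold) and Irf8 (2.67-fold). Of all 16363 genes tested in this arm, 31.4% were called, 16.7% as higher and 14.7% as lower, and 12.7% had every KO library above every WT library. The median log2 fold change was 2.78 over the 8 factors and -0.02 over all genes tested. Higher and lower calls over all genes numbered 2731 and 2409 as deposited, 2318 and 4145 after quantile normalization, and 7355 and 94 after scaling to Trbc1 and Trbc2, which placed the median of all genes at -0.14 and 0.35; the 7 factors were called higher in each case.

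**Figure D1:**
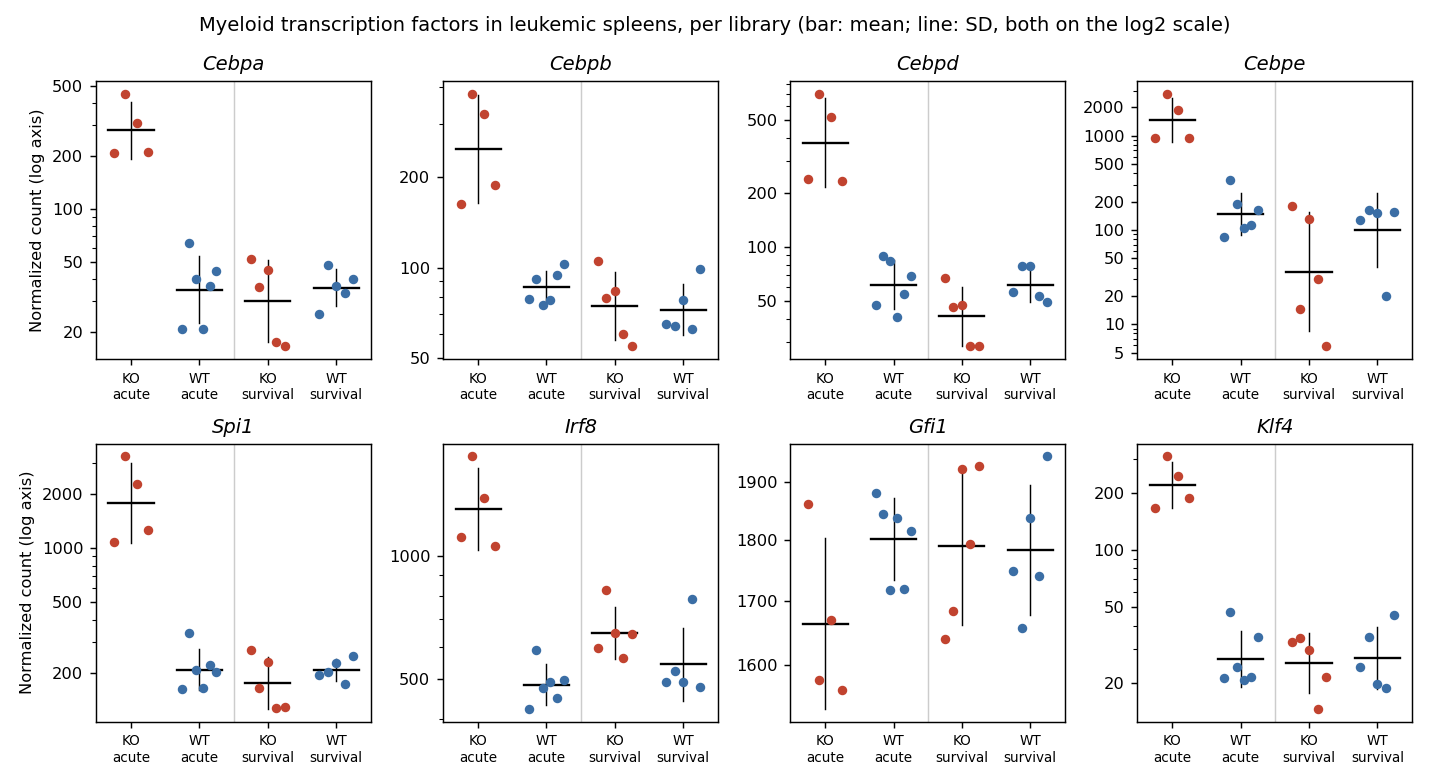
Normalized count (log axis) of each factor in every library, KO in red to the left of WT in blue within each arm; bars are means and lines SDs, both taken on the log2 scale. In the acute arm KO points lie above all WT points for every factor except Gfi1, and in the survival arm the groups overlap for all 8.

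Spi1, which encodes PU.1, had 1079, 3261, 2281 and 1260 normalized counts in acute KO libraries 1 to 4, against a lowest of 163, a median of 206 and a highest of 338 in the 6 WT libraries. KO libraries 2 and 3 stood highest, and the lowest KO library was still above the highest control. The rise was 8.45-fold (log2 fold change 3.08, SE 0.292, limma adjusted p = 3.8e-05).

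Cebpa, the C/EBP of early granulocyte and monocyte progenitors, had 209, 454, 311 and 211 normalized counts in acute KO libraries, against 20.6, 38.3 and 64.1 as the lowest, median and highest WT value. Its KO libraries again ranked with number 2 first and number 3 second. It rose 7.85-fold (log2 fold change 2.97, SE 0.33, limma adjusted p = 7.1e-05).

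Cebpe, the C/EBP of late neutrophil maturation, showed the widest change among the 8. Its acute KO libraries held 957, 2795, 1853 and 947 normalized counts, and its WT libraries 83.7 at the lowest, 138 at the median and 339 at the highest. KO libraries 1 and 4 were close to each other, and library 2 held 2.95 times the value of library 4. It rose 9.93-fold (log2 fold change 3.31, SE 0.394, limma adjusted p = 0.000107).

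Cebpd, induced by cytokines such as G-CSF and IL-6, had 236, 703, 524 and 233 normalized counts in acute KO libraries, against 41.2, 61.9 and 89.6 in WT libraries (lowest, median, highest). The groups were well apart although the KO libraries themselves spread 3.02-fold. It rose 6.02-fold (log2 fold change 2.59, SE 0.332, limma adjusted p = 0.000178). Cebpb, the factor of demand-driven granulopoiesis, had 163, 379.8, 326 and 189 normalized counts in acute KO libraries, against 74.9, 85.3 and 102 in WT libraries. It rose 2.86-fold (log2 fold change 1.52, SE 0.224, limma adjusted p = 0.000439), less than the other C/EBP members here.

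Irf8, which promotes monocytes and dendritic cells and restrains neutrophils, had 1112, 1746, 1379 and 1055 normalized counts in acute KO libraries, against 423, 484 and 591 in WT libraries (lowest, median, highest). It rose 2.67-fold (log2 fold change 1.41, SE 0.134, limma adjusted p = 3.8e-05). Klf4, which acts in monocyte differentiation, had 167, 310.0, 244 and 187 normalized counts in KO libraries, against 20.6, 22.9 and 47.1 in WT libraries. It rose 7.94-fold (log2 fold change 2.99, SE 0.265, limma adjusted p = 3.8e-05). For both genes the groups did not overlap.

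Gfi1, the repressor that supports granulocytes and is also made by T-cell precursors, stood apart from the other 7. It had 1862, 1578, 1669 and 1563 normalized counts in acute KO libraries, against 1717, 1827 and 1881 in WT libraries (lowest, median, highest). KO library 1 lay within the control range and the other 3 below it. The difference did not pass the test (log2 fold change -0.11, SE 0.0567, limma adjusted p = 0.15). It was called lower without acute KO library 1 (-0.17, limma adjusted p = 0.0251) and higher after scaling to Trbc1 and Trbc2 (0.26, limma adjusted p = 0.041), so its direction depends on the scaling.

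Acute KO library 2 was the highest and library 3 the second highest KO library for each of the 7 factors that rose. Without these 2 libraries all 7 were still called higher, with log2 fold changes of 1.91 for Cebpd, 2.68 for Cebpe and 2.47 for Spi1. Over all 17248 genes tested without them, 8.04% were called higher. Cebpa was then at 2.55, Cebpb at 1.02, Irf8 at 1.15 and Klf4 at 2.67. Among controls, WT library 2 was the highest for Cebpa, Cebpd, Cebpe, Spi1, Irf8 and Klf4, and WT library 6 for Cebpb.

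Markers of myeloid cells moved with the factors, while 16.7% of all genes tested were called higher and 14.7% lower. All 18 neutrophil markers were called higher, with a median log2 fold change of 3.78. Their summed level was 179328 to 620235 normalized counts in acute KO libraries and 12528 to 48294 in WT libraries. Acute KO libraries 2 and 3 and WT library 2 were the highest of their groups for this sum too. All 7 tested early granule markers, whose summed level was 15491 to 35998 in KO and 742 to 5608 in WT libraries, and all 10 monocyte markers, at 25375 to 78104 in KO and 2573 to 7470 in WT libraries, were also called higher. The same held for 8 of 10 resident macrophage markers (summed level 4323 to 9477 in KO, 3393 to 4741 in WT), 10 of 10 B-cell markers (1137 to 2640 in KO, 499 to 995 in WT), 4 of 10 listed dendritic-cell markers and 7 of 9 listed basophil, mast-cell and eosinophil markers. Of these, 1 dendritic-cell marker and 2 of the basophil, mast-cell and eosinophil markers were under 10 normalized counts in every WT library and entered the test through the KO libraries alone, so they had to differ; the others called numbered 3 of 6 and 5 of 6 tested. All 14 T-lineage markers were lower as deposited, at a summed level of 155145 to 211469 in KO and 238851 to 249862 in WT libraries, and 3 of them were called lower after scaling to Trbc1 and Trbc2. Trbc1 and Trbc2 are themselves on this list, and the scaling makes their sum equal in all libraries. The lower count after it is therefore no independent check of the T-lineage markers. None of the 8 erythroid markers was called by limma, 3 had an unadjusted p under 0.05, and 4 were called higher without KO library 1. The macrophage count was 4 without KO library 2 or without KO library 3. Without both, the counts were 18 neutrophil, 7 early granule, 8 monocyte, 2 macrophage, 3 B-cell, 4 dendritic-cell and 6 basophil, mast-cell or eosinophil markers higher and 8 T-lineage markers lower, while 8.04% of 17248 genes tested were called higher and 4.02% lower. The dendritic-cell count and the basophil, mast-cell and eosinophil count without both may again include markers that entered through the KO libraries alone. Clec10a and Siglech among the dendritic-cell markers and Cpa3 among those of mast cells were at 0 in at least 1 acute library. The largest part of the monocyte sum was Lyz2, at a mean of 28333 normalized counts in KO and 2163 in WT libraries. Log2 fold changes of the 10 monocyte markers ran from 0.99 (Csf1r) to 4.87 (F13a1). With the mean log2 level of the neutrophil markers as a covariate, none of the 8 factors, and no gene at all, was called by limma. That level was 11.1 to 12.98 in KO and 7.53 to 9.13 in WT libraries, so it does not overlap between the groups and cannot be told apart from them. The part of these cells in the factors' rise was not tested.

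**Figure D2:**
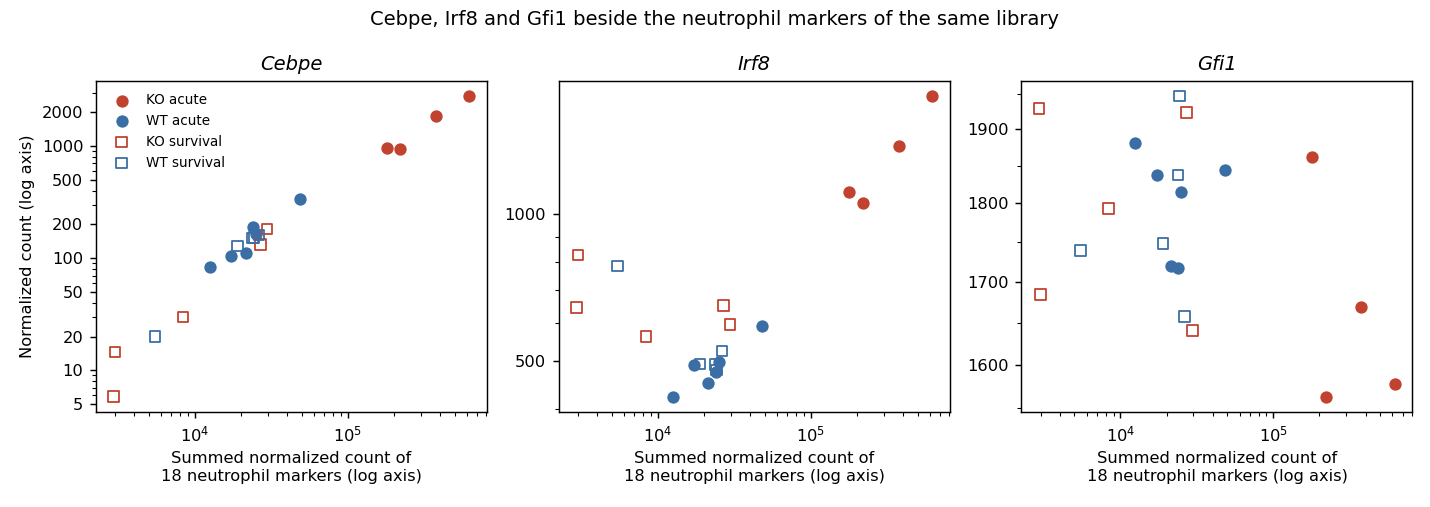
Normalized count of Cebpe, Irf8 and Gfi1 (log axes) against the summed normalized count of 18 neutrophil markers (log axis) in the same library, KO in red and WT in blue; circles are the acute and open squares the survival arm, which were scaled separately. Cebpe lies along a rising band in both arms, Irf8 has its 4 acute KO libraries at the top but high values also where the markers are low in the survival arm, and Gfi1 stays within a narrow range.

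In the survival arm no factor was called by limma, and 1 of the 8, Cebpd, had an unadjusted p under 0.05. Only 2 of 16136 genes were called in that arm (0.0124%), and 8.74% had an unadjusted p under 0.05. KO and WT libraries overlapped for all 8 factors, as against 2.01% of genes tested with no overlap. Cebpd had 67.4, 46.5, 48.1, 28.2 and 28.5 normalized counts in survival KO libraries, against 56.2, 78.2, 78.4, 53.3 and 49.5 in WT libraries. KO libraries 4 and 5 were the lowest, and KO library 1 lay inside the control range. The log2 fold change was -0.57 (SE 0.255, limma adjusted p = 0.553).

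Cebpe varied most from library to library at the endpoint. It had 182, 14.6, 132, 29.9 and 5.8 normalized counts in survival KO libraries 1 to 5, against 128, 162, 151, 19.98 and 154 in WT libraries 1 to 5. The highest KO library held 31.1 times the lowest, and the highest WT library 8.09 times the lowest. The low libraries were KO 2, 4 and 5 and WT 4, and these 4 also had the lowest summed neutrophil markers, at 3002, 8364 and 2942 normalized counts in the KO libraries and 5465 in the WT library, against 26919 and 29638 in the other KO and 18951 to 26249 in the other WT libraries. The log2 fold change of Cebpe was -1.41 (SE 0.847, limma adjusted p = 0.669).

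Irf8 did not follow that order. It had 595, 825, 650.0, 563 and 645 normalized counts in survival KO libraries, against 493.4, 525, 492, 783 and 480.3 in WT libraries. The highest library of each group, KO 2 and WT 4, was one in which Cebpe and the neutrophil markers were low. The same KO library 2 and WT library 4 had the highest summed dendritic-cell markers of their groups, at 418 and 489.8 normalized counts, and also the highest summed resident macrophage markers, at 7078 and 4439, against 3935 to 5219 in the other KO and 3298 to 4252 in the other WT libraries. The summed erythroid markers were highest in WT library 4 as well (112779), but not in KO library 2 (42758, against 38719 to 86583 in the other KO libraries). The summed monocyte markers were lowest in WT library 4 (2316.5, against 3357.9 to 4198.7 in the other WT libraries). In KO library 2 they were at 2529.4, against 1974.8 to 4775.4 in the other KO libraries. The summed B-cell markers were highest in neither. They were at 353.6 in KO library 2 (highest KO library 532.4) and 575.0 in WT library 4 (highest WT library 632.8). The part of all these cells in the Irf8 values was not tested. The log2 fold change was 0.25 (SE 0.139, limma adjusted p = 0.644).

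The remaining factors differed less between survival groups. Spi1 had 269, 166, 232, 128 and 131 normalized counts in KO libraries, against 195, 203, 229.7, 175 and 250.4 in WT libraries (log2 fold change -0.24, SE 0.201, limma adjusted p = 0.758). Cebpa had 52.0, 35.9, 44.8, 17.5 and 16.5 in KO libraries, against 25.2, 48.0, 36.3, 33.2 and 39.9 in WT libraries (log2 fold change -0.24, SE 0.327, limma adjusted p = 0.853). For both, KO libraries 4 and 5 were the lowest of all 10. Cebpb averaged 76.4 ± 20.1 in KO and 73.7 ± 15.6 in WT libraries, Klf4 26.6 ± 8.37 in KO and 28.7 ± 11.3 in WT libraries, and Gfi1 1794 ± 133 in KO and 1786 ± 110.2 in WT libraries (SD, n = 5 each). Their log2 fold changes were 0.04 (SE 0.203), -0.09 (SE 0.306) and 0.01 (SE 0.0653), with limma adjusted p of 0.976, 0.955 and 0.991. None of the marker lists held a gene called by limma in this arm; at an unadjusted p under 0.05 there were 0 of 17 neutrophil, 0 of 7 early granule, 1 of 10 monocyte, 7 of 10 macrophage, 4 of 10 B-cell, 1 of 6 dendritic-cell, 1 of 4 basophil, mast-cell or eosinophil, 0 of 8 erythroid and 2 of 14 T-lineage markers. The 7 macrophage markers were all higher in KO libraries and the 4 B-cell markers all lower. Over all genes tested, 8.74% had such an unadjusted p.

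The change of 7 of the 8 factors differed between the arms. This contrast, the survival less the acute log2 fold change over all 20 libraries, was called for 20.2% of 15673 genes tested, and with the acute fold change the larger for 10.9%. It was -4.72 for Cebpe (SE 1.04, limma adjusted p = 0.00298), -3.32 for Spi1 (SE 0.378, adjusted p = 1.4e-05), -3.22 for Cebpa (SE 0.489, adjusted p = 0.000111) and -3.16 for Cebpd (SE 0.439, adjusted p = 4.9e-05). It was -3.07 for Klf4 (SE 0.417, adjusted p = 4.1e-05), -1.48 for Cebpb (SE 0.312, adjusted p = 0.00204) and -1.16 for Irf8 (SE 0.206, adjusted p = 0.000439). For Gfi1 it was 0.12 (SE 0.0849, adjusted p = 0.346). Acly had its larger fall in the survival arm (-0.92, SE 0.164, adjusted p = 0.000442). The arms also differ in when tamoxifen was given and in when the spleen was taken, and these cannot be told apart. With the neutrophil marker level as a covariate, none of the 8 differences was called, nor was that of Acly (-0.48, adjusted p = 0.795 in limma). Over all genes, 1 of 15673 was called in that setting. The covariate does not overlap between acute KO and WT libraries and cannot be told apart from those groups. The part of neutrophils in the difference between the arms was not tested.

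**Figure D3:**
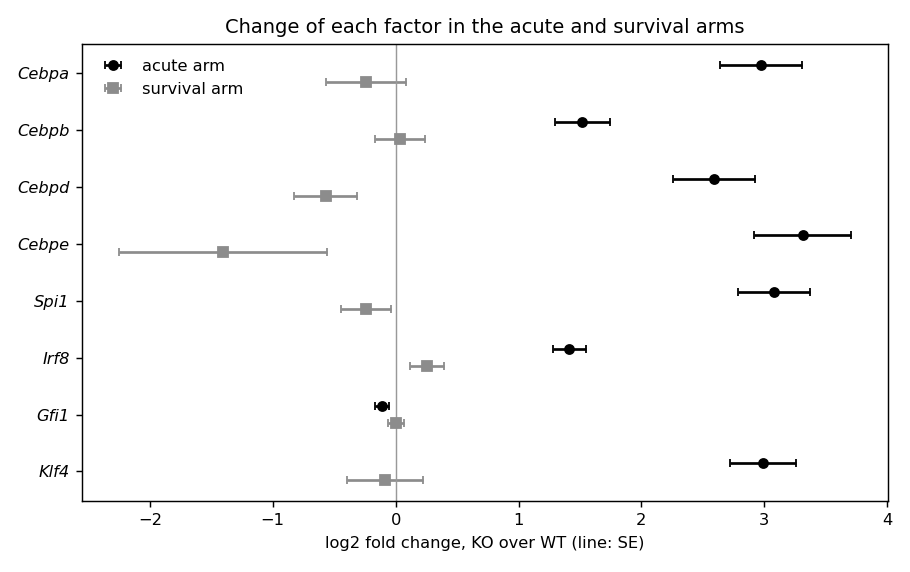
Log2 fold change, KO over WT, of each factor in the acute arm (black circles) and the survival arm (grey squares); lines are standard errors. Acute values lie between 1.41 and 3.31 for 7 factors and at -0.11 for Gfi1, while survival values lie between -1.41 and 0.25.

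The factors' textbook target genes were described from short lists, which were chosen with earlier results of these data known. Their acute counts stand beside 16.7% of all genes tested called higher and 14.7% called lower. All 6 listed targets of C/EBP epsilon, the secondary and tertiary granule genes Ltf, Camp, Ngp, Lcn2, Mmp8 and Mmp9, were called higher in acute KO libraries, with a median log2 fold change of 3.92. Mmp8, neutrophil collagenase, averaged 2908 ± 1866 normalized counts in KO and 103 ± 42.9 in WT libraries (SD, n = 4 and 6; log2 fold change 4.67, SE 0.393). Mmp9, a gelatinase, was at a log2 fold change of 4.57 (SE 0.363) and Ltf, lactoferrin, at 4.02 (SE 0.379), each with a limma adjusted p of 3.8e-05. All 6 also stand on the neutrophil marker list.

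All 5 listed targets of C/EBP alpha (Csf3r, Il6ra, Elane, Mpo and Prtn3) were called higher, with a median of 3.52. Csf3r, the G-CSF receptor, averaged 1375 ± 694 normalized counts in acute KO and 116 ± 51.6 in WT libraries (log2 fold change 3.52, SE 0.338, limma adjusted p = 3.8e-05). Mpo, myeloperoxidase, was at 3.92 (SE 0.541, limma adjusted p = 0.000291) and Prtn3, proteinase 3, at 3.86 (SE 0.53, limma adjusted p = 0.000283). Of 16 PU.1 targets, 14 were called higher and none lower, with a median of 2.78. Among them were the lysozyme gene Lyz2 (3.70, SE 0.383), the shared receptor chain of GM-CSF, IL-3 and IL-5 Csf2rb (3.67, SE 0.344) and the integrin Itgam (3.65, SE 0.342), with adjusted p of 4.9e-05, 3.8e-05 and 3.8e-05 in limma. Msr1 and Tyrobp did not pass the test, at 1.26 and 1.09. Csf3r is also on the neutrophil marker list, Elane, Mpo and Prtn3 on that of early granules, and Lyz2, Itgam and Csf1r on that of monocytes.

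Targets given to IRF8 and GFI1 moved less. Over all genes tested in the acute arm, 16.7% were called higher and 14.7% lower. Of 5 tested IRF8 targets 4 were called higher (median 0.60), led by Ciita, the class II transactivator, at 1.41 (SE 0.264, limma adjusted p = 0.00201). Cst3, cystatin C, was at 0.60 (SE 0.166, limma adjusted p = 0.0173) and Pml, a nuclear body protein, at 0.38 (SE 0.0859, limma adjusted p = 0.00583). The count fell to 2 without acute KO libraries 2 and 3, where Cst3 was at 0.33 and Pml at 0.19, and Cst3 also lost its call without KO library 2 (0.46) or KO library 3 (0.55) alone. Of 11 genes known to be repressed by GFI1, 8 were called higher and 1 lower; 1 of the 8 was under 10 normalized counts in every WT library and was tested through the KO libraries alone, which leaves 7 of 10. Csf1r, the M-CSF receptor that is also a PU.1 target, was at 0.99 (SE 0.139, limma adjusted p = 0.000333), and Cdkn1a, the cell-cycle inhibitor p21, at 0.69 (SE 0.184, limma adjusted p = 0.0141), which was 0.37 and not called after quantile normalization. Id1 was lower as deposited, at -0.38 (SE 0.0905, limma adjusted p = 0.00826), and at -0.0011 with scaling to Trbc1 and Trbc2. Without acute KO libraries 2 and 3 the count of higher genes was 4, with Cdkn1a at 0.42 and Id1 at -0.25, both not called; Cdkn1a was also not called without KO library 2 alone (0.57). In the survival arm no gene of any of these target lists was called by limma, and 0 of 6, 0 of 5, 2 of 16, 1 of 5 and 3 of 10 tested had an unadjusted p under 0.05 in the order C/EBP epsilon, C/EBP alpha, PU.1, IRF8 and GFI1. The median survival log2 fold changes were -1.09 for the C/EBP epsilon targets and -1.50 for the C/EBP alpha targets, with -0.16 over the 8 factors and 0.01 over all genes tested.

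**Figure D4:**
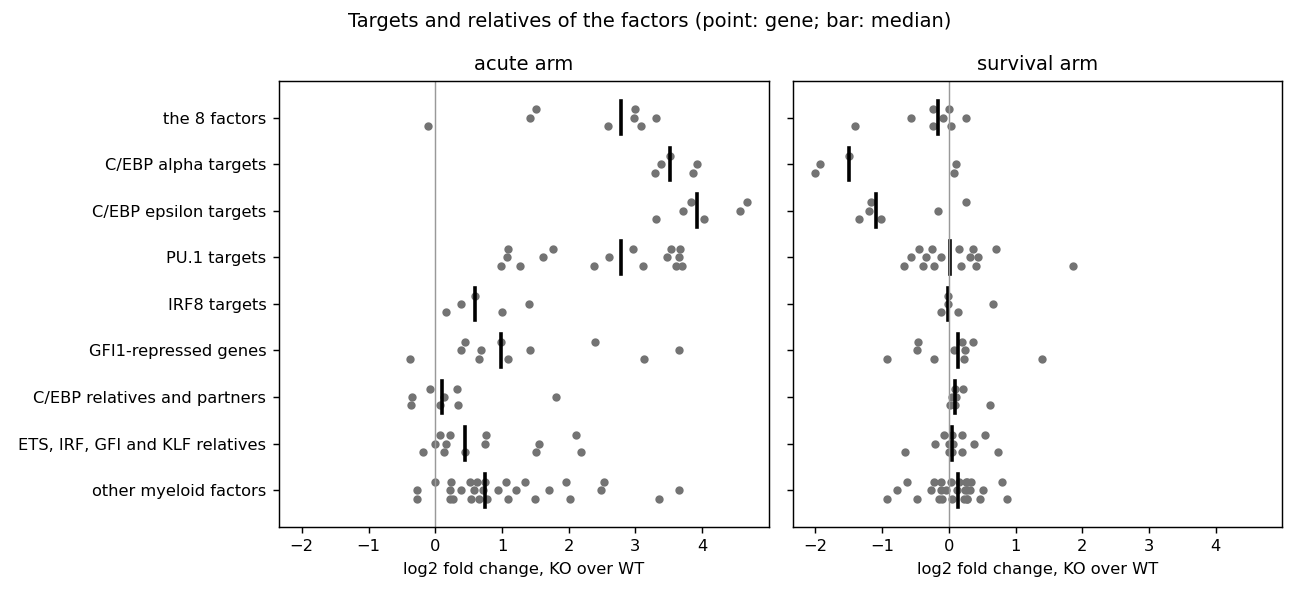
Log2 fold change, KO over WT, of the 8 factors, of their listed targets and of related factors in the acute (left) and survival (right) arm; each point is 1 gene and the bar is the list's median. In the acute arm the medians of the C/EBP and PU.1 target lists lie at 2.78 or above and that of the C/EBP relatives at 0.10; in the survival arm no listed gene was called.

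Relatives of the factors did not all share the rise. Of 8 tested C/EBP relatives and partners, 1 was called higher and 2 lower in acute KO libraries (median 0.10). For a list of this size these counts are close to the shares over all genes tested, 16.7% higher and 14.7% lower. Batf, a basic leucine zipper partner of IRF8 and IRF4, averaged 110 ± 50.3 normalized counts in KO and 29.6 ± 10.2 in WT libraries (SD, n = 4 and 6; log2 fold change 1.81, SE 0.337, limma adjusted p = 0.00192). Trib1 and Trib2, pseudokinases that send C/EBP alpha for degradation, were called lower as deposited, at -0.36 (SE 0.0648, limma adjusted p = 0.00145) and -0.35 (SE 0.0626, limma adjusted p = 0.00148), and were at 0.0114 and 0.0254 with scaling to Trbc1 and Trbc2. The C/EBP relatives Cebpg and Ddit3 did not pass the test, at 0.13 and 0.33. With that scaling, 5 of the 8 were called higher and none lower, as were 12 of the 13 relatives of the other factors and 26 of the 29 other blood factors described next, while 44.9% of all genes tested were called higher and 0.574% lower with it. In the survival arm no gene of these 3 lists was called by limma, and 0 of 7, 3 of 13 and 7 of 28 had an unadjusted p under 0.05.

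Of 13 relatives of PU.1, IRF8, GFI1 and KLF4, 7 were called higher and 1 lower (median 0.45), against 16.7% and 14.7% of all genes tested. Irf5, an interferon regulatory factor of macrophages, was at 2.19 (SE 0.201, limma adjusted p = 3.8e-05), Irf7, the interferon-inducible member, at 2.11 (SE 0.386, limma adjusted p = 0.00172) and Klf2 at 1.55 (SE 0.24, limma adjusted p = 0.000617). Irf1, Irf2 and Irf4 did not pass the test, at -0.0039, 0.17 and 0.13, and neither did Gfi1b, the erythroid and megakaryocyte paralog of Gfi1, at 0.45. Ets1, the ETS factor of T cells, was lower as deposited at -0.18 (SE 0.0552, limma adjusted p = 0.0298), and was called higher with scaling to Trbc1 and Trbc2 (0.20, limma adjusted p = 0.0421). Its call was lost without KO library 2 (-0.12), KO library 3 (-0.16), WT library 4 (-0.18), WT library 5 (-0.17) or WT library 6 (-0.18). The list's count of calls was 5, all higher, without KO library 2, KO library 3 or WT library 5, and 4 without KO libraries 2 and 3 together.

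Of 29 other transcription factors of blood development, 20 were called higher and 2 lower, against 16.7% and 14.7% of all genes tested. Of the 20, 1 was tested through the KO libraries alone, being under 10 normalized counts in every WT library, which leaves 19 of 28. Hlx, a homeobox gene, averaged 260.2 ± 124 normalized counts in acute KO and 23.2 ± 6.94 in WT libraries (log2 fold change 3.36, SE 0.315, limma adjusted p = 3.8e-05). Nfe2 was at 2.53 (SE 0.307, limma adjusted p = 0.000121) and Hhex at 2.48 (SE 0.295, limma adjusted p = 0.000106). The lower calls were Myb, a factor of progenitors and immature T cells, at -0.28 (SE 0.0664, limma adjusted p = 0.00831), and Tcf4, a factor of plasmacytoid dendritic and lymphoid cells, at -0.28 (SE 0.0866, limma adjusted p = 0.0282); both were at 0.10, not called, with scaling to Trbc1 and Trbc2. Runx1, required for blood stem cells and also active in T cells, was at -0.0038 and not called. Without acute KO libraries 2 and 3, 10 of the 29 were called higher and none lower, with Myb at -0.15 and Tcf4 at -0.20. Tcf4 was also not called without KO library 2 (-0.28) or KO library 3 (-0.23) alone.

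The genes with the pattern nearest to each factor were ranked by the root mean square difference of log2 values over all 20 libraries, after centring each gene in each arm, among 11220 genes with a mean of at least 50 normalized counts in both arms. Cebpe lay nearest to Camp (0.208), Chil3 (0.274) and Ngp (0.302), against a spread of its own of 1.71 about its arm means. Among the genes nearest to Spi1 were Zbtb7b (0.124) and Slc16a3 (0.164), with a spread of 1.15 for Spi1 itself. Cebpa lay nearest to Csf2ra (0.237), Itpripl2 (0.253) and Spi1 (0.275), with a spread of 1.16, and Cebpd to Sort1 (0.235), Cpne2 (0.257) and Slc16a3 (0.265), with a spread of 1.03. Klf4 lay nearest to Zfp516 (0.263), Ifitm2 (0.291) and Itpripl2 (0.291), and Cebpb to Vasp (0.194), G6pdx (0.194) and Flna (0.198), with spreads of 1.12 and 0.617. Irf8 lay nearest to Wdfy2 (0.173), Inpp5d (0.173) and Rps6ka1 (0.192), with a spread of 0.545. For Gfi1, whose spread was 0.0905, the nearest genes were Dgkd (0.0501), Mrpl37 (0.0602) and Galnt2 (0.062). Among the 8 themselves, Cebpa and Spi1 were the closest pair (0.275) and Cebpe and Gfi1 the farthest (1.75). The libraries are shared by all these genes, so the distances are a description of them.

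Promoter windows, the 250 bases before each RefSeq gene start in build GRCm38.p6, were available for 5 of the 8 factors (Cebpa, Cebpb, Irf8, Gfi1 and Klf4) and for 10 of the 11 C/EBP targets. They are shown for 1 factor that rose, for the 1 that did not, and for 4 called targets that were picked because they hold a match. The motifs were searched on both strands: TTNCNNAA for C/EBP, present in 36.8% of 32851 promoter windows of the same length, GAGGAA for PU.1, present in 23.3%, and for IRF a pair of GAAA runs 2 bases apart, present in 2.98%. Capitals mark matches of the first and second motif, in the strand of the gene.
Cebpa, chr7:35119043-35119292, plus strand: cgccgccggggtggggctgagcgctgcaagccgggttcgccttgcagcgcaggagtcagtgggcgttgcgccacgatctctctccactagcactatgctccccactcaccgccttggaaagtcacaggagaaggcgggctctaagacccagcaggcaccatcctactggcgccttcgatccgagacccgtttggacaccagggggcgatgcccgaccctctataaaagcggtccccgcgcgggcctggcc
Gfi1, upstream start, chr5:107725806-107726055, minus strand: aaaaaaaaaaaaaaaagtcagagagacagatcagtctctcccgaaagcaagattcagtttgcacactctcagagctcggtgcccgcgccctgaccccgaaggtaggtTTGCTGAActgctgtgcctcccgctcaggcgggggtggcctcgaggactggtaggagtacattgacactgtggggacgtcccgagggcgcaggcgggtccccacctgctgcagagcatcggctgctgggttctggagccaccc
Ngp, chr9:110419558-110419807, plus strand: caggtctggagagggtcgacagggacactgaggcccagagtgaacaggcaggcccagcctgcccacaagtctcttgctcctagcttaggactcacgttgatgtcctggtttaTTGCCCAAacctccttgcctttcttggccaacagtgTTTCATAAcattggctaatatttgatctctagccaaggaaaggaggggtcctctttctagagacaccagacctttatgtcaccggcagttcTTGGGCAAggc
Mmp8, chr9:7558179-7558428, plus strand: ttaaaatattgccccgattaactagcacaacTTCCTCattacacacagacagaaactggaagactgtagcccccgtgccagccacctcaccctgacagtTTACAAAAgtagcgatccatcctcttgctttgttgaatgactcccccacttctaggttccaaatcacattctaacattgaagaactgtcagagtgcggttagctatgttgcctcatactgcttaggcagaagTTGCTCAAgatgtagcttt
Csf3r, chr4:126024409-126024658, plus strand: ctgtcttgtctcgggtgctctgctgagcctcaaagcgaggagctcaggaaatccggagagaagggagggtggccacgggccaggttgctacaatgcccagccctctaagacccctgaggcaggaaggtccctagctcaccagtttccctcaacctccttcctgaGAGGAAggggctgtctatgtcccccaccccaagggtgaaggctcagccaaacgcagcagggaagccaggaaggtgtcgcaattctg
Elane, chr10:79886062-79886311, plus strand: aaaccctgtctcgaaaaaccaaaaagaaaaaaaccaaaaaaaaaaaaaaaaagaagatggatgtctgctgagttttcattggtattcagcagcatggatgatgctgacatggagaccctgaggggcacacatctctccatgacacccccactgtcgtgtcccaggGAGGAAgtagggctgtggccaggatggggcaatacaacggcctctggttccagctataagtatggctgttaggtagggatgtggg

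Of the 5 factors with a window, Gfi1 held a C/EBP match, 143 bases before its upstream start, and none held a PU.1 or an IRF match. Over both lists of C/EBP targets, 5 of 10 windows held a C/EBP match and 8 a PU.1 match, against 36.8% and 23.3% of all windows. Of 5 C/EBP epsilon targets with a window, 4 held a C/EBP match, and Ngp, a neutrophil granule protein, held 3, at 138, 102 and 11 bases before the start. The window of Camp held no match of any motif. Mmp8 held C/EBP matches at 151 and 19 bases and a PU.1 match at 219 bases. Of 5 C/EBP alpha targets, 1 held a C/EBP match and all 5 a PU.1 match, at 86 bases in Csf3r and at 85 bases in Elane, the neutrophil elastase gene. In Il6ra, the IL-6 receptor gene, a C/EBP and a PU.1 match overlap at 70 bases. A match is a run of letters and not a site of binding, and a window without one says only that these letters are not in it.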

How the data were processed

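Strand-specific polyadenylated RNA was sequenced from 20 libraries. The authors deposited 2 tables of DESeq-normalized counts per gene, a signal that is not whole reads, with separate scaling of each. Per the submitters' processing notes, kallisto 0.46.0, DESeq and the build GRCm39 were used; the sources used here give no annotation, gene-level summary step or filter. Low values did not share a single step per library, so whole reads were not recovered, read depth is not known exactly and no count model was run. Genes of near-identical sequence can share reads, and no gene coordinates from GRCm39 were used.

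Normalized counts were analysed as log2(value + 1), on which fold changes of low genes are understated. Genes reaching 10 in at least 4 acute or 5 survival libraries entered a linear model in limma 3.58.1, run in R 4.3.3 (eBayes with trend, two-sided, Benjamini-Hochberg over all genes). The arm contrast used all 20 libraries. The fit was checked on simulated data. Labels name no batch. Figures used Python 3.11.15 and matplotlib 3.10.9.

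Members and the 17 other lists were chosen with earlier results of these data known. Of each list, up to 3 called genes per direction with the largest change and a mean of at least 50 were named, beside uncalled relatives chosen after their values were seen; marker lists are given as counts and sums. The 3 genes nearest in pattern to each factor were named. Of the genes these rules name, 2 are not reported here. Promoters come from RefSeq (GRCm38.p6). Alternatives were other pseudocounts, filters and scalings, no trend, library weights, a neutrophil marker covariate, a replicate block and left-out libraries.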

Additional observations from a re-analysis of the deposited data

Results flagged for a closer look

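Among 36 groups of libraries examined, 9 genes in 4 groups, those of 4 to 6 libraries were checked for a single library far from the rest by Dixon's criterion, which chance meets in about 1 of 20 groups, and 3 met it. Cebpe was at 19.98 normalized counts in survival WT library 4, the lowest of the 5. Irf8 was at 783 in that same library, the highest of the 5. Spi1 was at 338 in acute WT library 2, the highest of the 6.

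The difference between the arms, survival less acute log2 fold change, passed limma's test for Cebpa (-3.22), Cebpb (-1.48), Cebpd (-3.16), Cebpe (-4.72), Spi1 (-3.32), Irf8 (-1.16), Klf4 (-3.07) and Acly (-0.92). Over all genes tested, this difference was called for 20.2%, and with the acute fold change the larger for 10.9%. In each of the 7 factors the acute KO libraries were higher than WT libraries and the survival groups overlapped. Over all genes tested, 12.7% had every acute KO library above every WT library, and 2.01% had no overlap in the survival arm.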

How the results depend on the processing

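The 7 acute calls kept their direction and their call under every alternative run except the neutrophil marker covariate. That covariate left 0 factors and 0 genes called in the acute arm. It left 0 factors and 1 of 15673 genes differing between the arms. Without acute KO libraries 2 and 3 all 7 were called, while the count over all genes was 2079. Leaving out 1 library at a time gave 7 to 8 factors called in the acute arm and 0 in the survival arm, and 1 to 23 genes over all in the survival arm, with 23 without WT library 4. The survival arm had 4 genes called with the filter at 50, 1 with scaling to Trbc1 and Trbc2, 11 with library weights and 1 with the covariate. With the filter at 50, Cebpa and Klf4 were not tested between the arms. In the acute arm Klf4 then entered the test through the KO libraries alone, with a highest WT value of 47.1. Its kept call under that filter had to differ and is no check. Cebpa reached 50 in acute WT library 2 (64.1) and in no other acute WT library. Low levels limit the survival values, where Cebpe reached only 5.8 normalized counts in KO library 5.

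Under the covariate, acute log2 fold changes were -0.0935 for Cebpa, -0.29 for Cebpb, -0.52 for Cebpd, -0.65 for Cebpe and 0.0868 for Gfi1, with Spi1 at 0.06, Irf8 at 0.16, Klf4 at 0.70 and Acly at -0.79, none called. Reversed too were Trib2 (0.10), Batf (-1.04), Irf7 (-0.47), Klf2 (-0.46), Ets1 (0.21), Nfe2 (-0.58), Hhex (-0.39), Tcf4 (0.22), Mpo (-0.68), Prtn3 (-0.90), Ltf (-0.0167), Lyz2 (-0.33), Ciita (-0.92), Pml (-0.16) and Cdkn1a (-0.0587). The differences between arms were then 0.0331 for Cebpa, 0.44 for Cebpb, 0.0847 for Cebpd, 0.0719 for Cebpe, 0.0149 for Irf8 and -0.0823 for Gfi1, and survival Klf4 was 0.01. In the acute arm the covariate has no overlap between KO and WT and includes target genes of the factors. Ltf is itself one of the markers averaged into it, so the value of Ltf under the covariate is not independent of it. The cause was not tested.

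Scaling to Trbc1 and Trbc2 put acute Acly at -0.0815 and turned acute Gfi1 (0.26), Trib1 (0.0114), Trib2 (0.0254), Ets1 (0.20), Myb (0.10) and Tcf4 (0.10), survival Gfi1 (-0.0783) and Cebpb (-0.047), and the Gfi1 difference between arms (-0.34, limma adjusted p = 0.0283, called). Quantile normalization put survival Gfi1 at -0.0109 and ended the acute calls of Cdkn1a (0.37, limma adjusted p = 0.0829) and Ets1 (-0.16, limma adjusted p = 0.0748). Without the trend, those of Ets1 and Tcf4 were lost (limma adjusted p = 0.0645 and 0.0544). With 1 library left out, survival values ranged from -0.0864 to 0.147 for Cebpb, -0.0212 to 0.0374 for Gfi1 and -0.21 to 0.10 for Klf4, none called.

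The labels do not say that replicate numbers mark shared animals or days, and not every same-numbered pair deviated together: correlations were 0.102, 0.141, -0.052 and 0.143 in the acute and from -0.021 to 0.128 in the survival arm. With a replicate block 7 factors were called in the acute arm and 3294 genes over all. Ets1 (-0.17), Myb (-0.26), Cst3 (0.57), Cdkn1a (0.61) and Id1 (-0.37) were then not called, and the count of calls was 2 of 5 IRF8 targets, 5 of 13 relatives of PU.1, IRF8, GFI1 and KLF4, and 1 erythroid marker.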
